A study of Mus musculus with 2 samples.

Results

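Transcripts of 32 genes that serve DNA replication and cell division were followed in mouse kidney glomeruli. The genes were listed by name, and probe sets of the Affymetrix Mouse Genome 430 2.0 array whose annotated symbol was exactly one of the names were taken. A probe set is a group of short oligonucleotides for a transcript. In all, 31 of the 32 genes had a probe set of that description (73 probe sets), out of 18193 genes on the array. Ccnb1 had none, so its transcript was not analysed here, and it enters only among the promoters. For each gene the probe set with the highest mean log2 signal over both arrays was used. RNA came from glomeruli, the filtering units of the kidney, of male KK/Ta mice aged 20 weeks. KK/Ta is an inbred strain prone to obesity and type 2 diabetes, and both groups share that background. One group received a high-fat diet (HFD, 1 array) and the other a normal chow diet (Chow, 1 array). The series' design mentions 3 mice, and it is not stated whether an array holds pooled RNA of several animals. Since each diet is a single hybridisation, no difference can be checked against replicates and none was tested. Every difference below describes these 2 RNA preparations.

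A cell that is about to divide first loads the MCM helicase onto replication origins, then copies its DNA in S phase and separates the copies in mitosis. Cyclins and their kinases drive these steps in order, and the transcripts of many of the proteins are made only shortly before they are needed. E2F factors switch on the replication genes, and the DREAM and MuvB complexes with B-MYB and FOXM1 control the mitotic genes. Cells of the adult glomerulus divide rarely, and podocytes are regarded as leaving the cell cycle when they mature.

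By the probe sets used, the proliferation genes were mostly above the array median in glomeruli, and a single gene reached a 1.5-fold difference between the diets. Of the 31 genes, 24 (77.4%) were above the array median on both arrays, where 59.5% of all 18193 genes were by the same rule. The HFD array had 24 of them above its median (61.4% of all genes) and the Chow array 25 (60.6% of all genes), Birc5 being above it in Chow only. The other 6 genes were below it on both, so that 25 were above it on at least 1 array, where 62.4% of all genes were. The choice of the brightest probe set raises this share with the number of probe sets: it was 43.0% for all genes with 1 probe set, 69.4% with 2, 80.1% with 3 and 88.5% with 4 or more, against 5 of 8, 7 of 9, 9 of 10 and 3 of 4 of the proliferation genes. Counted over probe sets, 41 of 73 (56.2%) were above the median on both arrays, close to the 54.3% of all 34945 probe sets with 1 gene. Between the diets, 0 of the 25 genes above the median on at least 1 array were 1.5-fold or more higher in HFD, where 4.21% of all such genes were. A single gene, Ccne2, was 1.5-fold or more lower (1 of 25), where 1.41% of all genes were. At 2-fold the counts were 0 higher and 0 lower, where 0.722% and 0.159% of all genes were. The median HFD minus Chow difference of the 24 genes was 0.055 log2 units, and that of all 10824 genes above the median on both arrays was 0.063. In whole glomeruli, fewer cells of a type and less RNA per cell cannot be told apart.

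The array median serves as the limit below which no fold is given, because the deposited values carry no detection calls. It lies at an intensity of 42.3 (HFD) and 44.9 (Chow). Just above it lay Aurka, at 1.01 times the median in HFD and 1.07 times in Chow. Birc5 lay across it, at 0.906 times in HFD and 1.35 times in Chow, and Kif11 lay below it at 0.527 and 0.666 times. Brightness depends on the probes as well as on the transcript, so signals of different genes are not ranked here.

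**Figure D1:**
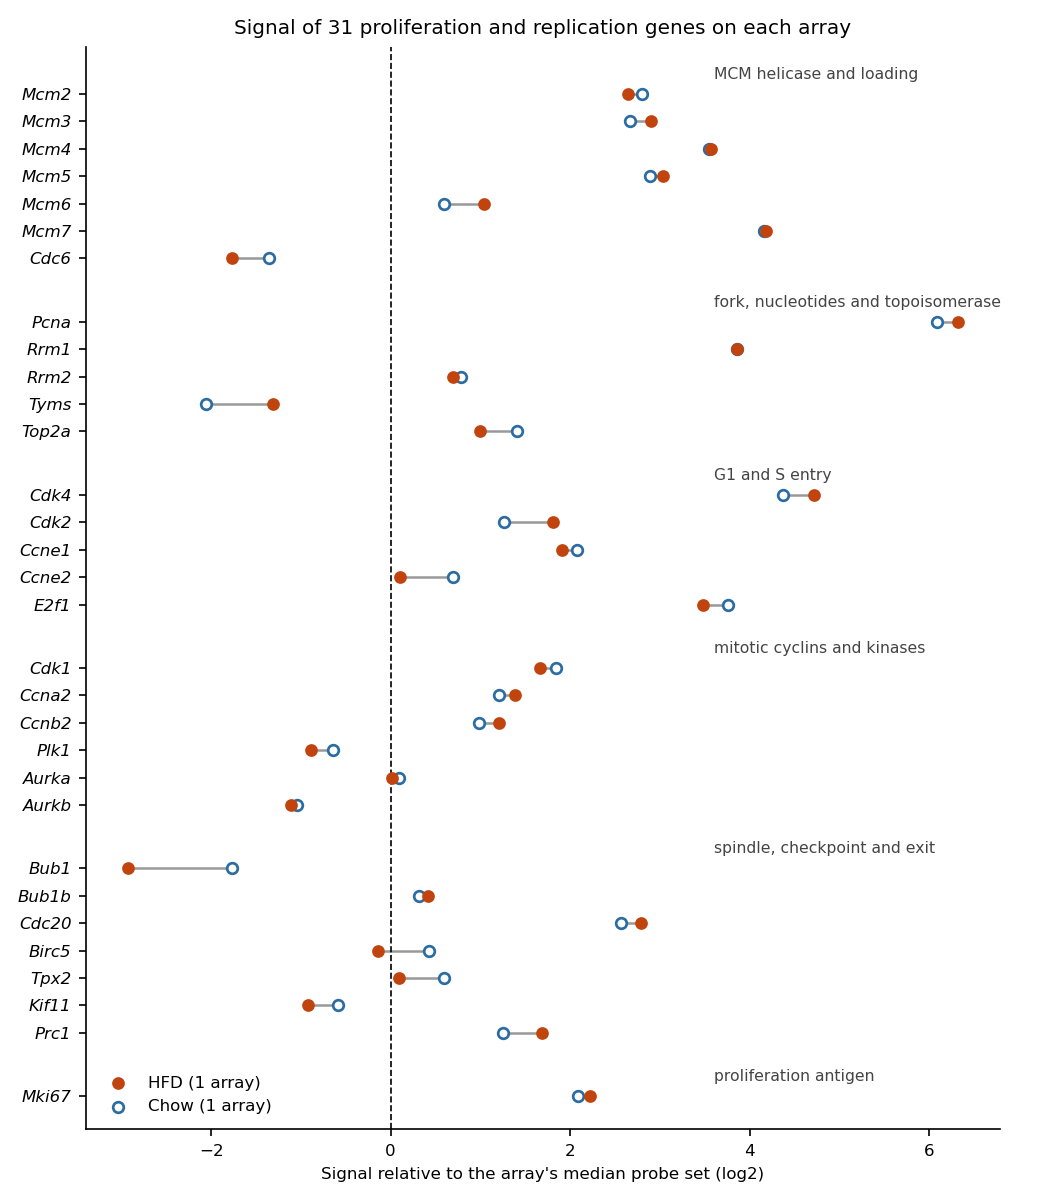
Signal of each of the 31 genes relative to the array's median probe set, on a log2 axis, grouped by role, with 1 filled point for the HFD array and 1 open point for the Chow array. The dashed line is the array median; 24 genes have both points to the right of it, and in most genes the points nearly coincide.

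In the probe sets used, replication helicase genes differed by less than 1.5-fold between the diets. Mcm2 to Mcm7 encode the 6 subunits of the ring that unwinds DNA at the fork, and all 6 were above the median on both arrays. Their differences ran from -0.15 to 0.44 log2 units. Mcm4 had a signal of 503 in HFD and 526 in Chow (0.021 log2 units after centring). Mcm7 had 766 in HFD and 804 in Chow (0.014). Neither gene differed between the arrays by more than the general offset of 0.083 log2 units that centring removed. Mcm5 had 347 in HFD and 332 in Chow (0.15), and both of its brighter probe sets gave 0.12 to 0.15. Mcm3 had 315 in HFD and 285 in Chow (0.23), but its 4 probe sets above the median ranged from -0.041 to 0.74. The value of 0.74, past 1.5-fold, came from a dimmer probe set with 104 in HFD and 66.2 in Chow. Mcm2 had 266 in HFD and 312 in Chow (-0.15), and a second probe set gave 0.25. The direction of Mcm2 thus depends on the probe set. Mcm6 had the largest helicase difference, with 86.8 in HFD and 67.6 in Chow (1.36-fold higher in HFD), while its second probe set differed by -0.0050. Cdc6, the factor that loads the ring onto origins, was below the median on both arrays, at 12.4 in HFD and 17.5 in Chow.

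E2F sites stood in the promoters of several of these helicase genes. RefSeq promoters of assembly GRCm38.p6, each with 250 bases before and 50 after the annotated transcription start, were held for 27 of the 32 genes (29 promoters). The letters TTTCGCGC, TTTGGCGC and TTTCCCGC, read on both strands, were taken as E2F sites. At least 1 of them was in 7 of the 29 promoters (24.1%), against 1.84% of all 32851 promoters. They belonged to Mcm3, Mcm5, Mcm6, Mcm7, Cdc6, Cdk2 and Cdk1, so that 5 of the 6 helicase and loading genes with a promoter entry held one. A match is a description of the letters and does not show that a factor binds there. The upstream stretches of Mcm6 and Mcm5 are shown because each holds 2 overlapping E2F matches on opposite strands. Capitals mark the E2F sites and the CCAAT boxes (ATTGG on the opposite strand) described further on.
Mcm6, chr1:128359741-128359825, strand minus: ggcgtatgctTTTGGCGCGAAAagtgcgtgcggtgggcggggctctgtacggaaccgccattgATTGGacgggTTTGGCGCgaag
Mcm5, chr8:75109349-75109443, strand plus: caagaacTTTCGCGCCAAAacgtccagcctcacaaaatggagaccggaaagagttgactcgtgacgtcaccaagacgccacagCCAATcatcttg

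In the probe sets used, the genes of the fork and of nucleotide supply that were above the median also stayed within 1.5-fold. Pcna encodes the sliding clamp of the replicative polymerases and also serves DNA repair. It read 3385 in HFD and 3041 in Chow, a difference of 0.24 log2 units or 1.18-fold. Rrm1 encodes the large subunit of ribonucleotide reductase, which makes deoxynucleotides. Its signal was 612 in HFD and 651 in Chow (-0.0044 after centring), and its second probe set gave -0.071. Rrm2, the subunit whose level follows S phase, had 68.3 in HFD and 77.2 in Chow (-0.094), and a second probe set, above the median in HFD only, gave 0.30 before the floor. Top2a, the topoisomerase that untangles DNA in dividing cells, had 84.7 in HFD and 119 in Chow, 1.33-fold lower in HFD. Its other probe sets were below the median on both arrays and do not show that direction. Top2a differed most among the measured genes of this role. Tyms, which makes thymidylate, was below the median on both arrays at 17.1 in HFD and 10.8 in Chow, so no fold is given. A further probe set annotated to Tyms together with its pseudogene was not used.

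The genes that govern entry into S phase held the widest differences of the set, in both directions. Cdk4, the partner of the D cyclins, had 1114 in HFD and 931 in Chow, 1.27-fold higher in HFD, and its 3 probe sets gave 0.097 to 0.34 log2 units, all in the same direction. The probe set used, at 0.34, has an identifier that marks shared sequence, and the one without that mark gave 0.15. Cdk2, the partner of cyclins E and A, had 149 in HFD and 108 in Chow, a difference of 0.55 (1.46-fold). This was the largest positive difference of the 25 genes, and its other probe set was below the median. Ccne2, a cyclin E, had 45.5 in HFD and 72.9 in Chow, 1.51-fold lower in HFD and the largest negative difference. In HFD it lay at 1.08 times the array median, where the signal is dim. Ccne1, the other cyclin E, had 159 in HFD and 190 in Chow (-0.17), and its other probe set was below the median on both arrays. E2f1, an activator of replication genes, had 473 in HFD and 605 in Chow (-0.27), but a second probe set, with 396 in HFD and 283 in Chow, gave 0.57. Among probe sets above the median on both arrays, those of E2f1 lay farthest apart.

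Mitotic cyclin and kinase genes differed by at most 0.23 log2 units in either direction where they were above the limit. Cdk1, the kinase that starts mitosis, had a signal of 135 in HFD and 161 in Chow (-0.17 log2 units). Ccna2, which encodes cyclin A2 of S phase and G2, had 111 in HFD and 103 in Chow (0.18), and a second probe set gave -0.22. Ccnb2, a B-type cyclin, had 98.1 in HFD and 88.8 in Chow (0.23). In the probe sets used, Cdk1 was lower in HFD while Ccna2 and Ccnb2 were higher, but the direction of Ccna2 depends on the probe set. Each of these differences was smaller than the scatter of genes of like signal given further on. Aurka, the centrosomal Aurora kinase, had 42.9 in HFD and 48.0 in Chow (-0.079). Plk1, a kinase of mitotic entry and spindle assembly, was below the median with 22.9 in HFD and 28.7 in Chow. Aurkb, the Aurora kinase of the chromosomal passenger complex, was below it with 19.6 in HFD and 21.7 in Chow.

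Spindle and checkpoint genes included both higher and lower values in HFD. Cdc20, the activator of the anaphase-promoting complex, had a signal of 292 in HFD and 266 in Chow (0.22 log2 units), and a second probe set differed by -0.0099. Prc1, which bundles the midzone microtubules in cytokinesis, had 136 in HFD and 107 in Chow, 1.35-fold higher in HFD. Its second probe set gave 0.60, which is past 1.5-fold. Both probe sets of Prc1 were thus higher in HFD. Tpx2, an activator of Aurora A on the spindle, had 45.2 in HFD and 67.8 in Chow, 1.41-fold lower in HFD. Its other probe sets were below the median on both arrays and do not show that direction. Birc5, the survivin subunit of the passenger complex, had 38.4 in HFD and 60.4 in Chow. As the HFD value is below the array median, it is given as at least 1.35-fold lower in HFD. Bub1b, a checkpoint kinase-like protein, had 56.3 in HFD and 56.1 in Chow (0.090). Bub1, a checkpoint kinase gene, was below the limit on both arrays, with 5.56 in HFD and 13.2 in Chow. Kif11, a spindle motor gene, was too, with 22.3 in HFD and 29.9 in Chow. Mki67, which encodes the Ki-67 antigen used to count cycling cells, had 198 in HFD and 190 in Chow, a difference of 0.14. It has 1 probe set, so no second measurement within the arrays is at hand.

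Mitotic genes carried another promoter element. The cell cycle homology region (CHR), searched as TTTGAA on both strands, was in 12 of the 29 promoters (41.4%), against 17.9% of all promoters. The CCAAT box, the site of the factor NF-Y, was in 23 of 29 (79.3%), against 37.4%. Both together were in 12 of 29 (41.4%), against 6.95% of all promoters. Of the genes with a promoter, 4 of 5 mitotic cyclin and kinase genes and 4 of 6 spindle and checkpoint genes held the CHR, as did Mki67, Mcm2 and Top2a, which makes 11 genes, with Prc1 counted at 2 starts. No match to the searched letters was found in the windows of Cdk4, Ccne1, E2f1, Tyms and Birc5. The stretches below show the spacing, with the E2F site, CHR and CCAAT boxes in capitals. Cdk1 is shown because it holds all 3 elements, with the E2F match 131 bases and a CHR 15 bases before the start. Cdc20 and Prc1 are shown for a CHR close to the start with a CCAAT box before it, and Mki67 for a pair of CHR matches, 116 and 98 bases before the start. Prc1 has 2 annotated starts, and the stretch is that of the downstream one.
Cdk1, chr10:69352913-69353052, strand minus: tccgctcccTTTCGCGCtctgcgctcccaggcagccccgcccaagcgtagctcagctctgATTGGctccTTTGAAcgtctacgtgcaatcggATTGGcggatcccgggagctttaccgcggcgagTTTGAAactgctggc
Cdc20, chr4:118437344-118437413, strand minus: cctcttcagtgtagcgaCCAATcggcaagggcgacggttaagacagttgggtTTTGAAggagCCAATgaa
Prc1, chr7:80294406-80294475, strand plus: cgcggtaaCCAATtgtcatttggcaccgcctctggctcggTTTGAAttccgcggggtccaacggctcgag
Mki67, chr7:135716465-135716579, strand minus: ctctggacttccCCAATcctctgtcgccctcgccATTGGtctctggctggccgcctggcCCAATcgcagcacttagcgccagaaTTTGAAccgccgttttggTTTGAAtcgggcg

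**Figure D2:**
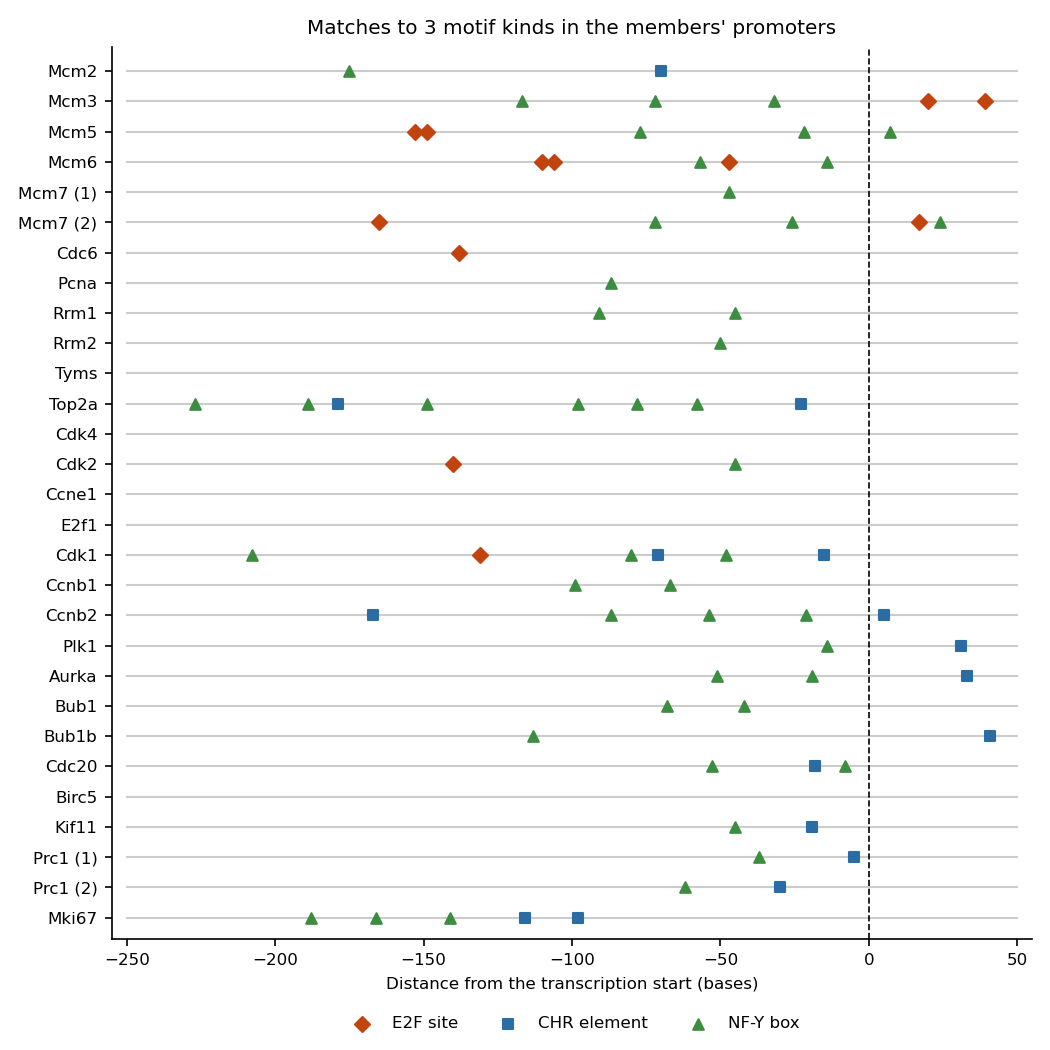
Positions of E2F (diamonds), CHR (squares) and NF-Y box (triangles) matches in the 29 promoters of 27 genes, as bases from the annotated transcription start (dashed line), with genes ordered by role as in the plot of signals and numbers marking the genes with 2 starts. E2F matches lie in the rows of Mcm3, Mcm5, Mcm6, Mcm7, Cdc6, Cdk2 and Cdk1, and CHR matches in the rows of mitotic genes, Mki67, Mcm2 and Top2a.

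The differences between the diets were listed beside the promoter elements. Of the measured genes with an E2F match, Cdk2 stood at 0.55, Mcm6 at 0.44, Mcm3 at 0.23, Mcm5 at 0.15, Mcm7 at 0.014 and Cdk1 at -0.17 log2 units. The values of Mcm6 and Mcm3 depend on the probe set, and the sign of Mcm7 depends on the scaling. The measured genes with a CHR ran from -0.41 (Top2a) to 0.44 (Prc1) log2 units. The same range held for genes above the median on both arrays whose promoter entries have no E2F match. These values are given side by side as a description, without a test.

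The differences were set against the scatter of genes of like signal, since no replicate exists. This scatter is the scaled median absolute deviation of the HFD minus Chow difference among genes of the same signal bin (10 bins of equal size), and it holds technical noise and real differences together. It was 0.37 log2 units in the dimmest bin above the median, where Ccne2, Tpx2, Mcm6, Bub1b, Aurka and Rrm2 lie, and 0.14 in the brightest, where Pcna lies. None of the 24 genes (0 of 24) lay more than 2 scatters from the median of its bin, where 8.31% of all genes did. More than 1 scatter was reached by 9 of 24 (37.5%), where 32.7% of all genes did, so the count is near the background. Ccne2 was farthest at -1.78 scatters, followed by Cdk4 at 1.71 and E2f1 at -1.66. At a smaller limit of 0.32 log2 units, Mcm6, Cdk2, Cdk4 and Prc1 were higher (4 of 25, where 13.5% of all genes were), and Top2a, Ccne2, Tpx2 and Birc5 lower (4 of 25, where 6.27% were).

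**Figure D3:**
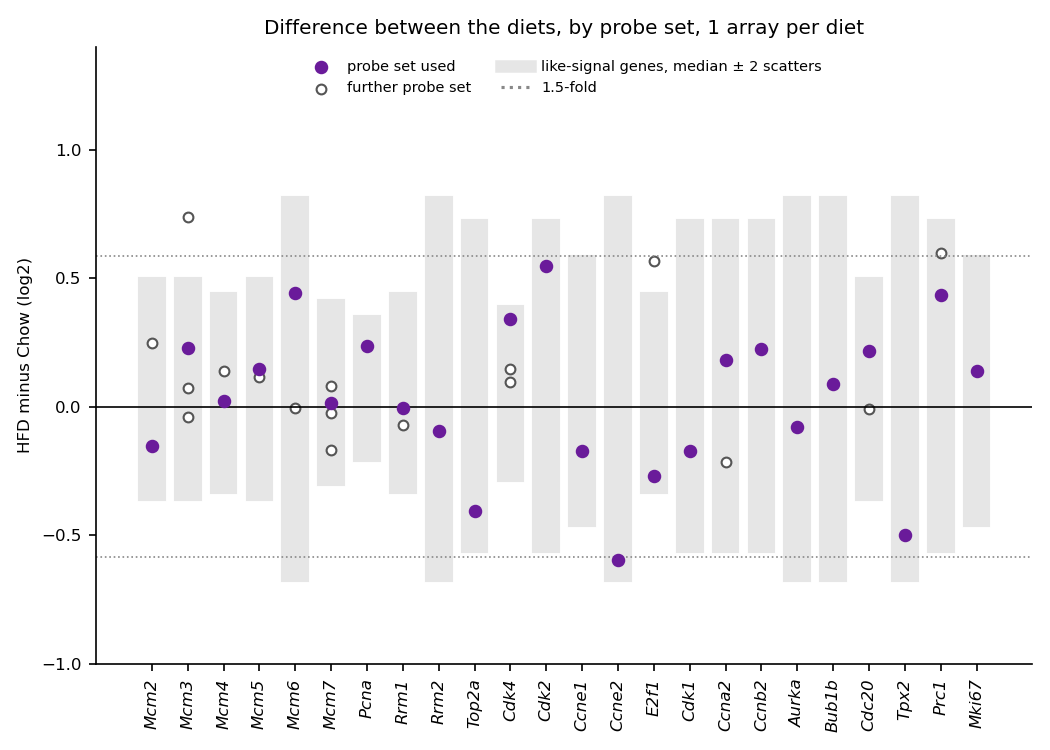
HFD minus Chow difference in log2 units for every probe set above the array median on both arrays, for the 24 genes with such a probe set chosen; filled points are the probe sets used, open points further probe sets, grey bars the median ± 2 scatters of genes of like signal, and dotted lines 1.5-fold. All 24 filled points lie inside their grey bars, while further probe sets of Mcm3 and E2f1 lie outside. Each bar is for the signal of the probe set used, so it is not matched to a dimmer further probe set such as that of Mcm3.

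Probe sets of the same gene gave a second look within the arrays. Of the 12 genes with several probe sets above the median on both arrays, 5 had all of them in the same direction (41.7%): Cdk4, Mcm4, Mcm5, Prc1 and Rrm1. Over all such genes it was 2456 of 4912. The standard deviation between probe sets of the same gene was 0.25 log2 units over the 12 genes (29 probe sets) and 0.23 over all. Most differences of the set are no larger than that: 16 of the 24 genes differed by less than 0.25 units in either direction. Agreement or disagreement of probe sets concerns the measurement within these RNA preparations and not the variation between mice.

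**Figure D4:**
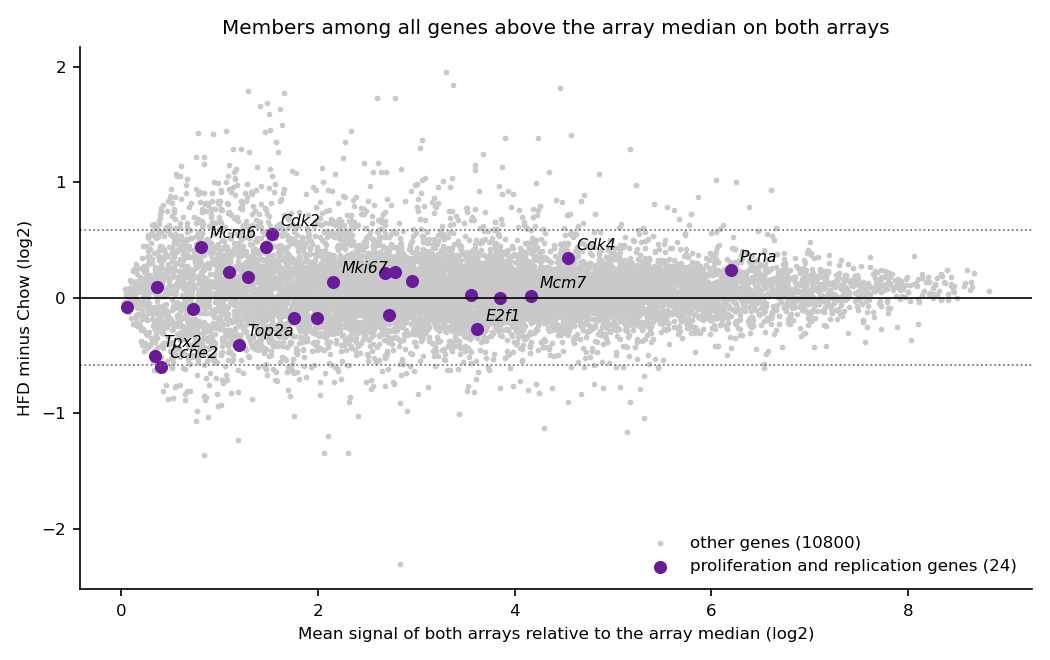
HFD minus Chow difference (log2) against the mean signal of both arrays relative to the array median (log2) for the 10824 genes above the median on both arrays, with the 24 proliferation and replication genes as large points and 10 of them named. Dotted lines mark 1.5-fold; the large points run from -0.59 (Ccne2) to 0.55 (Cdk2) and lie within the cloud of other genes.

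Directions were mixed. Of the 24 genes, 14 were above 0 (58.3%), where 62.2% of all genes above the median on both arrays were. The split moves with the scaling: without centring, 12 of 24 members and 45.7% of all genes were above 0, and 1.5-fold counts over all genes went from 478 higher and 160 lower to 333 higher and 251 lower. By role, 5 of 6 measured helicase and loading genes were above 0, 1 of 4 fork and nucleotide genes, 2 of 5 S phase entry genes, 2 of 4 mitotic cyclin and kinase genes and 3 of 4 spindle genes. Birc5, a further spindle gene known only as a bound, was lower in HFD and is not in these counts. The helicase count also moves with the scaling. Mcm4 and Mcm7 were below 0 without centring (-0.063 and -0.069 log2 units) and under the other scalings tried.

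The wider machinery, from 8 lists of 143 genes with none of the members, gave similar counts. The lists were drawn up with earlier results of these data known, so they are not an independent comparison. Of 141 genes with a probe set, 116 were above the median on at least 1 array. Of these, 6 (5.17%) were 1.5-fold or more higher in HFD and 3 (2.59%) lower, against 4.21% and 1.41% of all genes. The median difference of the 109 above it on both arrays was 0.017 log2 units. The 6 higher genes came from 4 lists. Fen1, the nuclease that trims Okazaki fragments, had 2609 in HFD and 1601 in Chow (1.73-fold higher), although a second probe set gave -0.17. Pold1, the catalytic subunit of polymerase delta, had 261 in HFD and 184 in Chow (0.59 log2 units), and its second probe set gave 0.12. These 2 were the only polymerase and fork genes of 26 past 1.5-fold. Ctps, which makes cytidine triphosphate, had 781 in HFD and 516 in Chow (1.60-fold). Kif20b, a cytokinesis kinesin, was 1.52-fold higher at a low signal, 77.6 in HFD and 54.0 in Chow. The other two are inhibitors of cyclin-dependent kinases: Cdkn1a (p21) had 471 in HFD and 254 in Chow (1.97-fold, with a second probe set at 0.53), and Cdkn2c (p18) had 635 in HFD and 393 in Chow (1.71-fold).

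The 3 lower genes of the wider lists act at origin licensing and firing and at mitotic entry. Gmnn encodes geminin, which holds back relicensing of origins, and had 120 in HFD and 291 in Chow, 2.28-fold lower and the only gene of the 116 past 2-fold, in its 1 probe set. Gins3, a subunit of the active helicase, had 77.7 in HFD and 127 in Chow (1.54-fold lower), and its second probe set gave -0.32. Wee1, the kinase that restrains Cdk1, had 673 in HFD and 1227 in Chow (1.72-fold lower), and a second probe set gave -0.45. Cks2, a Cdk1-binding subunit, came next to the limit with 135 in HFD and 214 in Chow (-0.58 log2 units), with a second probe set at -0.32.

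The other named genes of the wider lists did not reach 1.5-fold with dim values raised to the array median. Among origin licensing and firing genes, Cdc45 was above the median in HFD only, at least 1.46-fold higher. Among fork and nucleotide genes, Prim2 stood at -0.38, Dctpp1 at -0.44 and Nme1 at -0.40 log2 units. Second probe sets of Prim2 and Nme1 went the other way, at 0.13 and 0.051. Kinetochore and checkpoint genes held 0 of 11 past 1.5-fold on the same scale, with Mad2l1 at 0.22 and Cdca8 at 0.22, whose second probe set gave -0.26. Ttk was above the median in Chow only, with 30.4 in HFD and 51.7 in Chow, which gives a bound of -0.20 (-0.68 without the floor). Nusap1 and Hmmr, both spindle genes, stood at -0.38 and at a bound of -0.39. Cdc16, of the anaphase-promoting complex, stood at 0.41. The E2F, RB and DREAM regulators held 0 of 14 past 1.5-fold, with E2f5 at -0.34 (its other probe sets at -0.44 and 0.054), Foxm1 at -0.30 and E2f4 at -0.25. Ccnd1, which encodes cyclin D1, stood at 0.30.

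Marker genes of glomerular and other cell types were read, and markers of other cell types differed between the arrays. Podocyte markers (10 of 10 with a probe set), glomerular endothelial markers (10 of 10) and mesangial markers (7 of 7) were above the median on both arrays. Their medians were -0.019, 0.18 and 0.15 log2 units. The podocyte marker Dach1 was 1.71-fold lower in HFD, and 0 podocyte markers were 1.5-fold higher. Proximal tubule markers (10 of 10) and loop, distal tubule and collecting duct markers (9 of 9) were also above the median on both arrays. So were 9 of 13 macrophage and myeloid markers. The count above the median therefore cannot tell glomeruli from tubules. Macrophage and myeloid markers were 1.5-fold or more higher in HFD for 13 of 13, 4 of them as bounds, and their summed signal was 5850 in HFD and 2325 in Chow. Proximal tubule markers were higher by that much for 6 of 10, with summed signals of 11995 in HFD and 8812 in Chow, and loop, distal tubule and collecting duct markers for 6 of 9, with 10349 and 7353. Of 7 T and B lymphocyte markers, 6 were below the median on both arrays, and of 4 red cell precursor markers 2 were. The other red cell precursor markers were higher in HFD, Epor by 1.65-fold and Alas2 by at least 1.92-fold. Beside these values, the median of the proliferation genes was 0.055 and that of all genes 0.063. Any part of these other cells in a single gene's difference was not tested.

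**Figure D5:**
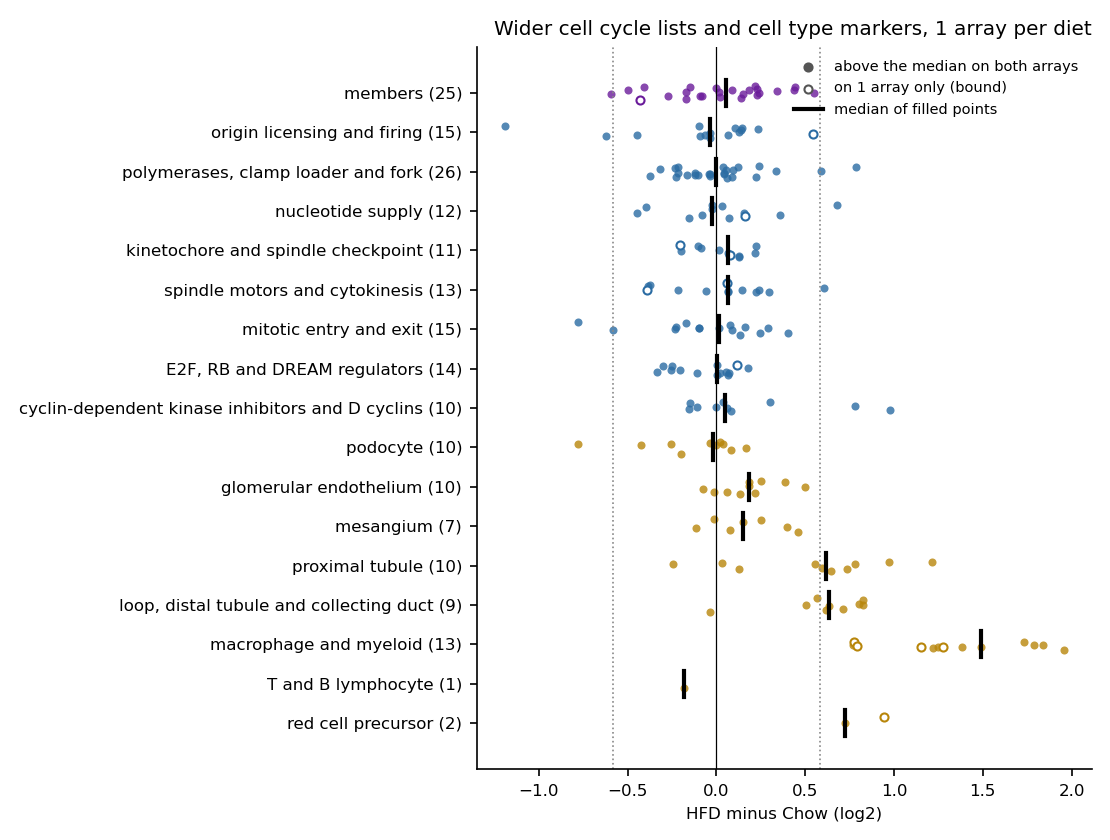
HFD minus Chow difference (log2) of the proliferation genes, 8 wider cell cycle lists and 8 marker lists, with the number of genes above the median on at least 1 array in brackets; filled points were above it on both arrays, open points are bounds, black bars are medians of the filled points and dotted lines 1.5-fold. The cell cycle lists centre near 0, and the myeloid points all lie to the right of the 1.5-fold line.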

How the data were processed

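Total RNA of isolated glomeruli was amplified and biotin-labelled by a 2-cycle kit protocol, per the labels, and the design text names GeneSpring 7.3.1 for comparing the diets. Intensities were deposited as linear signals of 45101 probe sets. Their summarisation and scaling were not given in the sources used here. After removal of 64 control probe sets, log2 intensities were centred on each array's median, which adds 0.083 to every HFD minus Chow difference. Signals below the array median were set to it, so a gene above it on a single array has a bound. Names came from the platform annotation of 2016, in which 34945 probe sets had 1 gene, 932 several, and 9160 were unnamed here. Probe sets whose identifiers mark shared sequence were kept. Those used for Mcm4, Mcm5, Cdc20, Cdk4, Ccne1, Rrm2, Fen1 and Pold1, among others, carry such a mark. Limits of fold replaced tests, and the number of arrays limits the precision. Members, lists and limits were chosen with earlier results of these data known. All members are named, and from each wider list the 3 largest differences. Other scalings, floors, probe set choices, fold limits and an added offset were tried. The procedure was run on simulated data with added differences well past 1.5-fold, so that run does not show how differences near the limit fare. Python 3.11.15, pandas 2.3.3 and statsmodels 0.14.6 were used.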

Additional observations from a re-analysis of the deposited data

How the results depend on the processing

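The number of genes above the array median on both arrays was 24 under the reported settings, other scalings, the choice of probe set by linear mean and the offset. It was 18 of 31 with the median over probe sets. Without probe sets whose identifiers mark shared sequence it was 18 of the 26 genes left. The share of all genes was not computed with these other probe set choices, so the counts of 18 have no background beside them. The median difference ran from -0.028 (no centring) to 0.10 (without shared probe sets), so its sign depends on the setting. Genes 1.5-fold or more higher numbered 0 and lower 1, except as follows: with no floor 1 was higher and 2 lower, and with the 70th percentile floor, or with the 25th percentile added, 0 were lower. Without a floor the added genes were Tyms (0.75) and Bub1 (-1.16), both below the median on both arrays. At a limit of 0.32 log2 units 4 were higher and 4 lower, and at 2-fold 0 and 0. Of 225 recomputed differences of single genes, 218 moved by less than the scatter of like-signal genes. Many of them could hardly move. Removal of the centring shifts each by 0.083, below the smallest scatter of 0.14, and choice by linear mean gave the same values. The 7 that moved further belong to 5 genes (Mcm2, Mcm6, Cdc20, Cdk4 and E2f1) and follow from another choice of probe set, E2f1 reaching 0.57 and Mcm2 0.25. The count of 218 thus says little about dependence on the probe set. The sign differed from the reported one in 15 of the 225, among them Rrm2, at 0.27 with the median over probe sets and without shared probe sets. No paired analysis was possible because each diet has 1 array. Ccne2, Tpx2, Birc5, Aurka and Bub1b have signals near the array median, where the scatter is 0.37 log2 units.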
